A study of Mus musculus with 12 samples.

Results

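Expression was examined for 8 enzymes that build glycerolipids and phospholipids: Gpam, Lpin1, Lpin2, Chka, Pcyt1a, Pcyt2, Chpt1 and Cept1. The genes were chosen by symbol, and all 8 were found among the 16106 genes of the deposited table. Libraries came from primary cultures of neural stem and progenitor cells, isolated from fetal mouse cortex on embryonic day 14.5 and grown as neurospheres, free-floating spheres of dividing cells. At passage 3 they received 10 μM pravastatin, a hydrophilic statin that inhibits HMG-CoA reductase, or the same volume of vehicle for 24 hours. There were 3 female and 3 male cultures with a library for each treatment, which gives 4 groups of 3 and 12 libraries of total RNA in all. The pregnant dams were C57BL/6 mice, and no genetic change is named for any group. The labels mark the 6 vehicle libraries as re-used from an earlier deposit and do not say when each library was prepared, so a difference in preparation and the treatment cannot be told apart.

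Membrane phospholipids and stored triacylglycerol share their first steps. Glycerol-3-phosphate is acylated by enzymes such as GPAM, a second acylation gives phosphatidate, and lipins remove its phosphate to give diacylglycerol. Choline and ethanolamine are phosphorylated by kinases, activated with CTP by the cytidylyl transferases PCYT1A and PCYT2, and transferred to diacylglycerol by CHPT1 and CEPT1, which yields phosphatidylcholine and phosphatidylethanolamine. Dividing cells depend on this route for new membrane. SREBPs, transcription factors released when sterols fall, are known to act on genes of sterol, fatty acid and phospholipid synthesis.

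Libraries held 13353619 to 18422845 reads, and each deposited value is a read count divided by the effective size of its library. Markers of neural stem cells (8 of 8 in the table) summed to between 6629 and 8142 in every library, but single markers differed in female cultures 2 and 3. Nes was 624 to 895 there, against 1103 to 1234 in the other 8 libraries. Sox2 was 438 to 573 against 257 to 297, and Hes5 238 to 458 against 85.2 to 136. Xist and the Y-linked gene Ddx3y followed the labelled sex in all 12 libraries. Female cultures 2 and 3 stood apart with either treatment. Their summed level of astrocyte markers (8 of 8 in the table) was 2534 to 3732, against 1525 to 2189 in the other 8 libraries, and that of oligodendrocyte markers (6 of 8, without Mog and Mobp) was 369 to 882 against 99.9 to 171. None of the 6 microglia markers was in the table. Results over both sexes for Pcyt2, Lpin1, Chka and Gpam are also given without female cultures 2 and 3. The tests in females alone and of the interaction are given only with them. In bulk RNA fewer cells of a type and less RNA per cell cannot be told apart.

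Levels of different genes were compared per length, as the value divided by the kilobases of exon in GENCODE vM21. With vehicle, Pcyt2 had the highest mean at 26.8 per kb and Lpin2 the lowest at 5.48 per kb. Between them the order of the vehicle means per kb was Lpin1 at 24.4, Pcyt1a at 18.4, Gpam at 14.7, Cept1 at 11.3, Chka at 9.20 and Chpt1 at 8.87. Only 3 steps of this order were free of overlap between the 6 libraries of neighbouring genes, namely Lpin1 above Pcyt1a, Cept1 above Chka and Chpt1 above Lpin2. With pravastatin the mean per kb was 69.7 for Pcyt2 and 37.2 for Lpin1. Chka, at 11.5 per kb, moved from the sixth place in the order of means to the fourth, past Cept1 and Gpam. The Gpam means were raised by the female cultures that stood apart, and its median per kb was 10.1 with vehicle and 7.96 with pravastatin. By vehicle medians Gpam lay below Cept1, at 11.4 per kb, but still above Chka, at 9.22 per kb. The order without those cultures was not worked out. Each library counted between 385 reads (Cept1) and 6712 reads (Lpin1) for these genes.

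**Figure D1:**
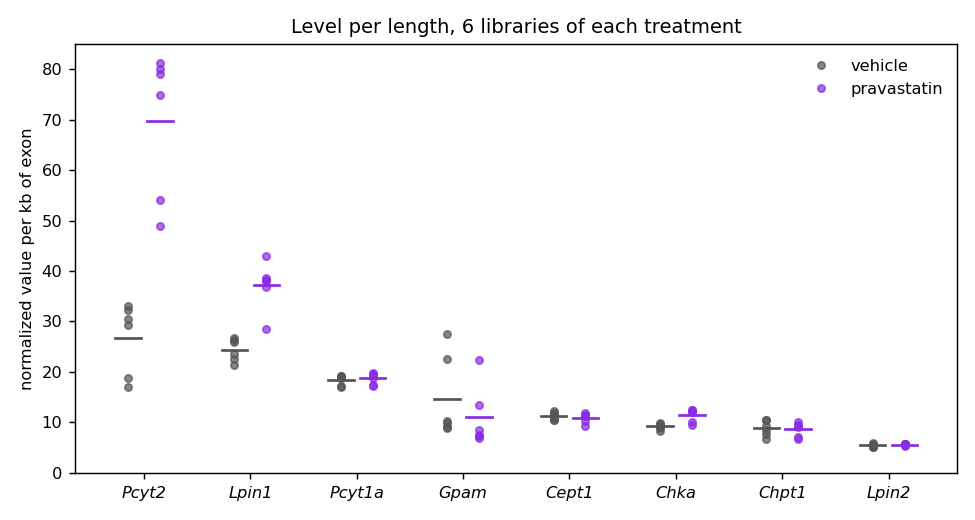
Normalized value per kilobase of exon (linear axis) for the 8 enzymes, with 1 point for each of the 6 vehicle and 6 pravastatin libraries and a bar at the mean. Pcyt2 went from a mean of 26.8 to 69.7 per kb and Lpin1 from 24.4 to 37.2 per kb, while Lpin2 lay lowest with either treatment.

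The main comparison asked whether pravastatin changed the RNA of these enzymes over both sexes. Pcyt2, Lpin1 and Chka rose, by 2.63-, 1.52- and 1.24-fold, no enzyme was called lower, and Lpin2, Pcyt1a, Chpt1 and Cept1 were not called, with folds between 0.965 and 1.02. Thus 3 of 8 were called higher at an adjusted p under 0.05 (limma, Benjamini-Hochberg over 15093 genes), where 2.69% of all genes tested were called higher and 0.311% lower. Of the 3, Pcyt2 and Lpin1 also exceeded 1.5-fold, as did 1.54% of all genes. The enzymes were chosen with earlier results of these data known, so these shares are not an independent test of the set. The median log2 change was 0.03 over the 8 enzymes and -0.01 over all genes tested. With a term for each culture, which compares the libraries of a culture with each other, Gpam was called lower in addition, and the background was then 10.5% of genes higher and 8.13% lower. Without female cultures 2 and 3 the log2 changes were 1.33 for Pcyt2, 0.65 for Lpin1 and 0.37 for Chka (adjusted p = 2.86e-09, 3.9e-05 and 0.000432), and Gpam was called lower, with 8.7% of genes higher and 8.01% lower. Rescaling the values to one total per library changed the split of called genes from 406 higher and 47 lower to 311 and 142, and in males from 925 and 664 to 686 and 1410, while Chka lost its call over both sexes and no called enzyme changed direction.

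**Figure D2:**
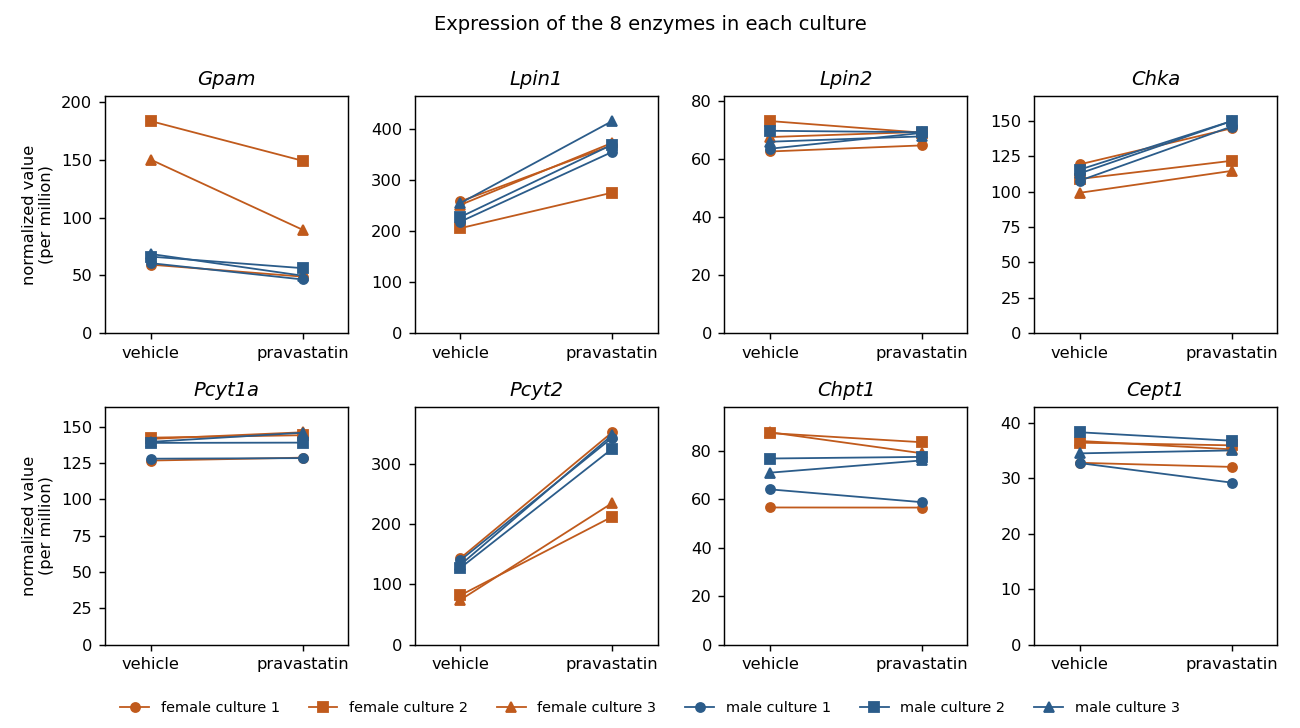
Normalized value (linear axes from 0) of each enzyme with vehicle and pravastatin. Lines join the libraries of a culture, with females in orange and males in blue. Pcyt2 and Lpin1 were higher and Gpam was lower with pravastatin in every culture, and female cultures 2 and 3 stood at 184 and 150.2 for Gpam with vehicle while the other cultures lay between 59.4 and 68.6.

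Gpam (chr19:55067268-55127238, minus strand, GRCm38) encodes the mitochondrial glycerol-3-phosphate acyltransferase, the entry to the pathway. With vehicle it stood at 59.4, 184 and 150.2 in female cultures 1, 2 and 3 and at 60.6, 66.3 and 68.6 in the male cultures. With pravastatin the values were 49.0, 149 and 89.6 in females and 46.6, 56.3 and 49.8 in males. Every culture was lower with the drug, but the level differed far more between cultures than between treatments, and the 2 groups overlapped. Being lower in all 6 cultures was shared by 10.6% of genes. Across libraries the log2 change was -0.40 (SE 0.28, adjusted p = 0.508), and with the culture term, where the SE fell to 0.06, the adjusted p was 0.00069. Without female cultures 2 and 3 the log2 change was -0.34 (SE 0.07, adjusted p = 0.00759).

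Those cultures were also the 2 with the higher sums of astrocyte and oligodendrocyte markers. Their vehicle values of Pcyt2, 81.7 and 74.1, lay below the 127 to 143 of the other cultures, and those of Chpt1, 87.3 and 87.6, lay above the 56.6 to 76.8 elsewhere. The part of these marker levels in the enzymes' levels was not tested.

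Lpin1 (chr12:16535669-16610966, minus strand) encodes a phosphatidate phosphatase that also acts as a transcriptional coactivator. It stood at 258, 206 and 251 in the female vehicle libraries and at 219, 228 and 255 in the male ones. With pravastatin it reached 368, 275 and 373 in females and 355, 369 and 416 in males. Every pravastatin library lay above every vehicle library, and the closest approach was 275 in female culture 2 with pravastatin against 258 in female culture 1 with vehicle. The rise was 0.60 on the log2 scale (SE 0.09, adjusted p = 0.00226, n = 6 libraries per treatment, limma). It was 0.54 when values were rescaled to one total per library, which is under 1.5-fold.

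Lpin2 (chr17:71182560-71249817, plus strand), a second phosphatidate phosphatase of the family, ranged from 62.5 to 73 with vehicle and from 64.6 to 69.3 with pravastatin. It was higher with the drug in 4 cultures and lower in 2. The fold was 1.02 with a 95% confidence interval of 0.941 to 1.10, so a change as large as that of Lpin1 lay outside the interval. Lpin3, the remaining lipin, fell under the filter on low values.

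Chka (chr19:3851773-3894369, plus strand) encodes choline kinase alpha, the first enzyme of the choline branch. Vehicle values were 119, 109 and 99.2 in females and 108, 116 and 113 in males. Pravastatin values were 145, 122 and 115 in females and 146, 149.8 and 149.8 in males. All 6 cultures were higher with the drug, and in males the treatments did not overlap, whereas female culture 3 with pravastatin lay below female culture 1 with vehicle. The rise was 0.31 on the log2 scale (SE 0.07, adjusted p = 0.0299). This call was lost in 10 of 24 alternative analyses, with adjusted p up to 0.0941: after rescaling to one total, without the sex term, and without any single male library, female pravastatin 1 or female vehicle 3. With the culture term the adjusted p was 0.000633.

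Of the cytidylyl transferases among the 8 enzymes, Pcyt2 of the ethanolamine branch rose and Pcyt1a of the choline branch was not called. Pcyt1b, a choline-branch gene outside the 8, rose by 0.68 on the log2 scale. Pcyt2 (chr11:120610087-120617936, minus strand), which activates phosphoethanolamine, was at 143, 81.7 and 74.1 with vehicle and at 353, 212 and 235 with pravastatin in females. In males it was at 139.9, 127 and 132 with vehicle and at 344, 325 and 348 with pravastatin. The lowest pravastatin library stood at 212 and the highest vehicle library at 143. This was the largest change among the 8 enzymes, 1.39 on the log2 scale (SE 0.16, adjusted p = 0.000142), between 2.46- and 3.17-fold in single cultures. Of the 8, Pcyt2 and Lpin1 were those whose treatments did not overlap, against 2.25% of genes with all pravastatin libraries above all vehicle libraries.

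Pcyt1a (chr16:32430921-32475070, plus strand), which activates phosphocholine, ranged from 127 to 142 with vehicle and from 128 to 146 with pravastatin. It was higher in all 6 cultures, as were 11.7% of genes, but by a log2 change of 0.06 at most. The log2 change was 0.03 (SE 0.06, adjusted p = 0.858), and the 95% interval of the fold ran from 0.936 to 1.11. The interval for Pcyt2, 2.08 to 3.32, did not overlap it.

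Neither of the 2 enzymes of the last step among the 8 was called. Chpt1 (chr10:88452745-88504073, minus strand), cholinephosphotransferase, ranged from 56.6 to 87.6 with vehicle and from 56.5 to 83.5 with pravastatin, lower in 4 cultures and higher in 2. Its fold was 0.974 (95% interval 0.800 to 1.19). Cept1 (chr3:106502260-106547802, minus strand), which transfers choline and ethanolamine alike, ranged from 32.8 to 38.3 with vehicle and from 29.3 to 36.8 with pravastatin, lower in 5 cultures and higher in 1. Its fold was 0.965 (95% interval 0.866 to 1.07). Exons of Chpt1, Cept1 and Pcyt1a overlap the genes Sycp3, Dennd2d and Slc51a on the opposite strand, none of which is in the table. Chka, which was called, shares 165 exon bases with AC133523.2 and 74 with Gm16066. Pcyt1a shares 107 with 2210020O09Rik, and these antisense genes are not in the table either. Cept1 also shares 5 exon bases with Dram2, which is in the table. In Chpt1, 303 bases are 95.05% identical to Gm13131 and 206 bases are 95.6% identical to Mgea5, both in the table. Reads from such stretches may be left uncounted or placed on the other gene, and the effect was not tested.

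**Figure D3:**
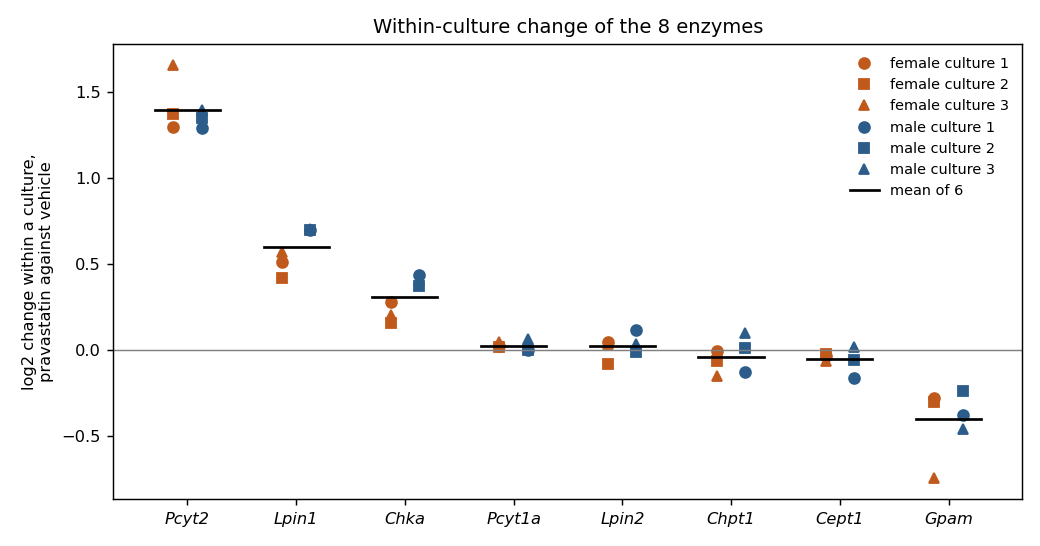
Log2 change with pravastatin within each culture (linear axis, 0 is no change) for the 8 enzymes, females in orange, males in blue, the bar at the mean of the 6. Changes ran from 1.29 to 1.66 for Pcyt2 and from -0.74 to -0.23 for Gpam, and for Lpin1 and Chka all 3 males lay above all 3 females.

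The sequence before the start site was compared for Lpin1 and Chka, which rose, and Pcyt1a, which was not called, since SREBPs bind a short sterol response element. RefSeq promoter windows of GRCm38.p6 were used for 7 of the 8 genes, all but Pcyt2, 14 windows in all, and the 250 bases before each start were searched on both strands for the SRE core TCACNCCAC, the E-box CACGTG, the CCAAT box and the GC box GGGCGG. Of all 32851 windows 346 held the SRE core, while 6.02% held the E-box, 33.8% the CCAAT box and 32.7% the GC box. The core was found before Pcyt1a, 116 bases from the start, and in no window of Lpin1, Lpin2, Gpam, Chka, Chpt1 or Cept1. The same window of Pcyt1a held 2 GC boxes that overlap each other. Before Chka were 2 CCAAT boxes and 2 GC boxes, of which 1 GC box lies on the opposite strand, and before Lpin1 none of the 4 motifs. The windows are chr16:32430671-32430920 (plus strand) for Pcyt1a, chr19:3851523-3851772 (plus strand) for Chka and chr12:16610967-16611216 (minus strand) for Lpin1, read 5′ to 3′ with motif letters in capitals.
Pcyt1a: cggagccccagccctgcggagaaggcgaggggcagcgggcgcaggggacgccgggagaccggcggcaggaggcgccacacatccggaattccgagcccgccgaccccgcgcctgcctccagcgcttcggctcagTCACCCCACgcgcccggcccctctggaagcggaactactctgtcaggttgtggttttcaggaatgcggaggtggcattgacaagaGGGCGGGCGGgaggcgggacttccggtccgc
Chka: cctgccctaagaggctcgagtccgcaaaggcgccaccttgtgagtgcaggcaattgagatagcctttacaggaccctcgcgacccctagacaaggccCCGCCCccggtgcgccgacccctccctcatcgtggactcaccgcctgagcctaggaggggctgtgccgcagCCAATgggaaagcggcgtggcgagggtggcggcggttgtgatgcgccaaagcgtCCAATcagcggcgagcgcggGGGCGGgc
Lpin1: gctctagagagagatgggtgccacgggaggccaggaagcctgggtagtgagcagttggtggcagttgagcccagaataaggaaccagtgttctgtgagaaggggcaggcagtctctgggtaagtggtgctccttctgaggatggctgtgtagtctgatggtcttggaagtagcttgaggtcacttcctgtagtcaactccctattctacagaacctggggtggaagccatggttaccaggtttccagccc
A match describes letters and is not a bound site, and a window without one says only that these letters are not within it. Thus the SRE core was found for 1 of these 7 genes, in 2 overlapping windows, and that gene, Pcyt1a, was not called, while Pcyt2 was not searched.

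Genes whose 6 within-culture changes lay closest to those of the called enzymes were found by the root mean square (RMS) difference in log2 change. For Pcyt2 they were Elovl6, a fatty acid elongase (RMS 0.082), Acly, ATP citrate lyase (0.089), and Acsl3, an acyl-CoA synthetase (0.108). For Lpin1 they were Ciart, a circadian repressor (0.061), Lrp8, a receptor for apolipoprotein E and reelin (0.061), and Pip4k2b, a phosphoinositide kinase (0.068). For Chka they were Tmem241 (0.020), Enox1 (0.034) and Rev3l (0.036), and of these 3 only Enox1 was called (adjusted p = 0.0314).

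Each sex was then tested on its own. In males Pcyt2 rose by 1.35 on the log2 scale (SE 0.07, adjusted p = 1.41e-07), Lpin1 by 0.70 (SE 0.08, adjusted p = 0.000221) and Chka by 0.41 (SE 0.06, adjusted p = 0.00218). Gpam fell by 0.36 (SE 0.09, adjusted p = 0.0259), a call that was lost without male vehicle 2 or 3 (adjusted p = 0.109 and 0.1). That is 3 of 8 higher and 1 lower, where 6.08% of 15221 genes were higher and 4.36% lower. In females 0 of 8 enzymes were called across libraries by limma or edgeR and 1, Pcyt2, by DESeq2 (adjusted p = 0.004), with 2 at an unadjusted p under 0.05 in each. By limma the log2 change was 1.44 for Pcyt2 (SE 0.30, adjusted p = 0.342) and 0.50 for Lpin1 (SE 0.16, adjusted p = 1), and 0.0724% of 15185 genes were called higher. With the culture term Pcyt2 (SE 0.08, adjusted p = 4.65e-05) and Lpin1 (SE 0.06, adjusted p = 0.00308) rose in females, with 1.95% of genes higher, while Chka (log2 change 0.22, adjusted p = 0.129) and Gpam (log2 change -0.44, adjusted p = 0.069) were not called.

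The difference between the sexes was tested as an interaction, and no gene was called among 15765, with 138 at an unadjusted p under 0.05 by limma, 148 by edgeR, 106 by DESeq2 and 1145 by limma with the culture term. Without the culture term these counts were below the share of 0.05 that chance alone would give, and with it the count was above that share. The fits without the term do not use the pairing and were conservative here, so their adjusted p does not show equal changes in the sexes. Of the 8 enzymes 0 were at an unadjusted p under 0.05 without the culture term, while Lpin1 and Chka were with it. Lpin1 changed within cultures by 0.51, 0.42 and 0.57 in females and by 0.70, 0.70 and 0.70 in males. Chka changed by 0.28, 0.16 and 0.21 in females and by 0.44, 0.37 and 0.41 in males. For these 2 genes the changes of all male cultures lay above those of all female ones, and the same was true of the signed changes of 5.59% of genes. Female cultures 2 and 3 stood apart in marker levels, so sex and the difference of those cultures are not separated here. Female culture 1 alone changed by 0.51 for Lpin1 and 0.28 for Chka. The difference, males minus females, was 0.20 for Lpin1 (SE 0.19, adjusted p = 1) and 0.19 for Chka (SE 0.14, adjusted p = 1). With the culture term the SEs were 0.08 and 0.09 and the adjusted p 0.65 and 0.666. For Pcyt2 the difference was -0.10 (95% interval -0.81 to 0.61).

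With vehicle alone 0 of 8 enzymes were called between the sexes, and 5 of 15081 genes were. None of the 8 was at an unadjusted p under 0.05 by limma, and 1 was by edgeR and by DESeq2. The largest differences, males minus females, were -0.85 for Gpam (SE 0.39, adjusted p = 0.354) and 0.48 for Pcyt2 (SE 0.24, adjusted p = 0.355). They rested on female cultures 2 and 3: without these the differences were 0.13 and -0.11, with female culture 1 as the only female library. Without female vehicle 1, Gpam (adjusted p = 4.31e-05) and Chpt1 (adjusted p = 0.0191) were called lower and Pcyt2 higher (adjusted p = 0.000162) in males. That fit compares the males with female cultures 2 and 3 alone, so sex and the difference of those cultures cannot be told apart in it.

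Of 52 other genes of the same routes, 44 were in the table and 43 were tested. They too were listed with earlier results of these data known. Across libraries 5 were called higher, namely Agpat4, Lipe, Etnk1, Pcyt1b and Lpcat3, and 0 lower, against 2.69% and 0.311% of all genes, with a median log2 change of 0.06. At an unadjusted p under 0.05 there were 10 higher and 0 lower by limma, and edgeR and DESeq2 also called 0 lower. With the culture term 13 were higher and 2 lower, against 10.5% and 8.13% of all genes. The other acyltransferases of the first 2 steps held 7 tested genes and 1 call. Agpat4, which makes phosphatidate from lysophosphatidate, was at 24.1, 29.5 and 30.7 with vehicle and at 62.6, 53.5 and 51.7 with pravastatin in females. In males it was at 26.6, 23.3 and 22.3 with vehicle and at 53.8, 62.4 and 68.4 with pravastatin. The treatments did not overlap, and the change was 1.16 on the log2 scale (SE 0.10, adjusted p = 1.8e-05), larger than that of any listed gene but Pcyt2. Agpat1, Agpat2, Agpat3, Agpat5 and Gpat4 were not called in either fit, and Lclat1 was called with the culture term only (log2 change 0.18, adjusted p = 0.0321).

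In the choline and ethanolamine branch 8 genes were tested. Etnk1, an ethanolamine kinase, ranged from 150.0 to 186 with vehicle and from 188 to 228 with pravastatin, a rise of 0.30 on the log2 scale (SE 0.06, adjusted p = 0.0123). Pcyt1b, the second phosphocholine cytidylyl transferase, was low, from 5.96 to 7.62 with vehicle and from 9.77 to 14.7 with pravastatin, and rose by 0.68 (SE 0.12, adjusted p = 0.00686). Selenoi, ethanolaminephosphotransferase, was called with the culture term only (log2 change 0.20, adjusted p = 0.0247), higher in 5 cultures. Its change was 0.35 and 0.39 in female cultures 2 and 3, and without these it was 0.11 across libraries (adjusted p = 0.277). Slc44a2, a choline transporter, was likewise called only there (0.17, adjusted p = 0.0454).

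Among 7 tested genes of triacylglycerol synthesis and breakdown, Lipe, hormone-sensitive lipase, rose by 0.66 on the log2 scale (SE 0.14, adjusted p = 0.022), with values of 14.8 to 28.6 with vehicle and of 26.5 to 39.6 with pravastatin. Dgat2, which makes triacylglycerol, and Pnpla2, which hydrolyses it, were called with the culture term only (log2 changes 0.27 and 0.39, adjusted p = 0.0155 and 0.0093). Among 7 lysophospholipid acyltransferases Lpcat3 rose by 0.51 (SE 0.08, adjusted p = 0.00358), with values of 39.2 to 54.6 with vehicle and of 55.0 to 67.8 with pravastatin. Lpcat1 (0.52, adjusted p = 0.000254) and Mboat2 (0.17, adjusted p = 0.0212) were called with the culture term only. The 7 genes of the CDP-diacylglycerol branch and the 3 of phosphatidylserine gave 0 calls across libraries. With the culture term Cds1 was higher (log2 change 0.87, adjusted p = 0.00266, at values of 1.36 to 7.90), and Tamm41 (-0.22, adjusted p = 0.0461) and Pisd (-0.16, adjusted p = 0.0321), both mitochondrial enzymes, were lower. None of the 4 tested phosphatidate phosphatases outside the 8 enzymes was called in either fit. Without female cultures 2 and 3, 11 of the 43 were called higher across libraries, against 8.7% of all genes. They included Lpcat1, Pnpla2, Dgat2, Cds1 and Lclat1, which needed the culture term only when all cultures were fitted. In males alone, also without that term, limma called Lpcat1 (adjusted p = 0.000595), Cds1 (0.00433), Pnpla2 (0.00601) and Dgat2 (0.0368).

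**Figure D4:**
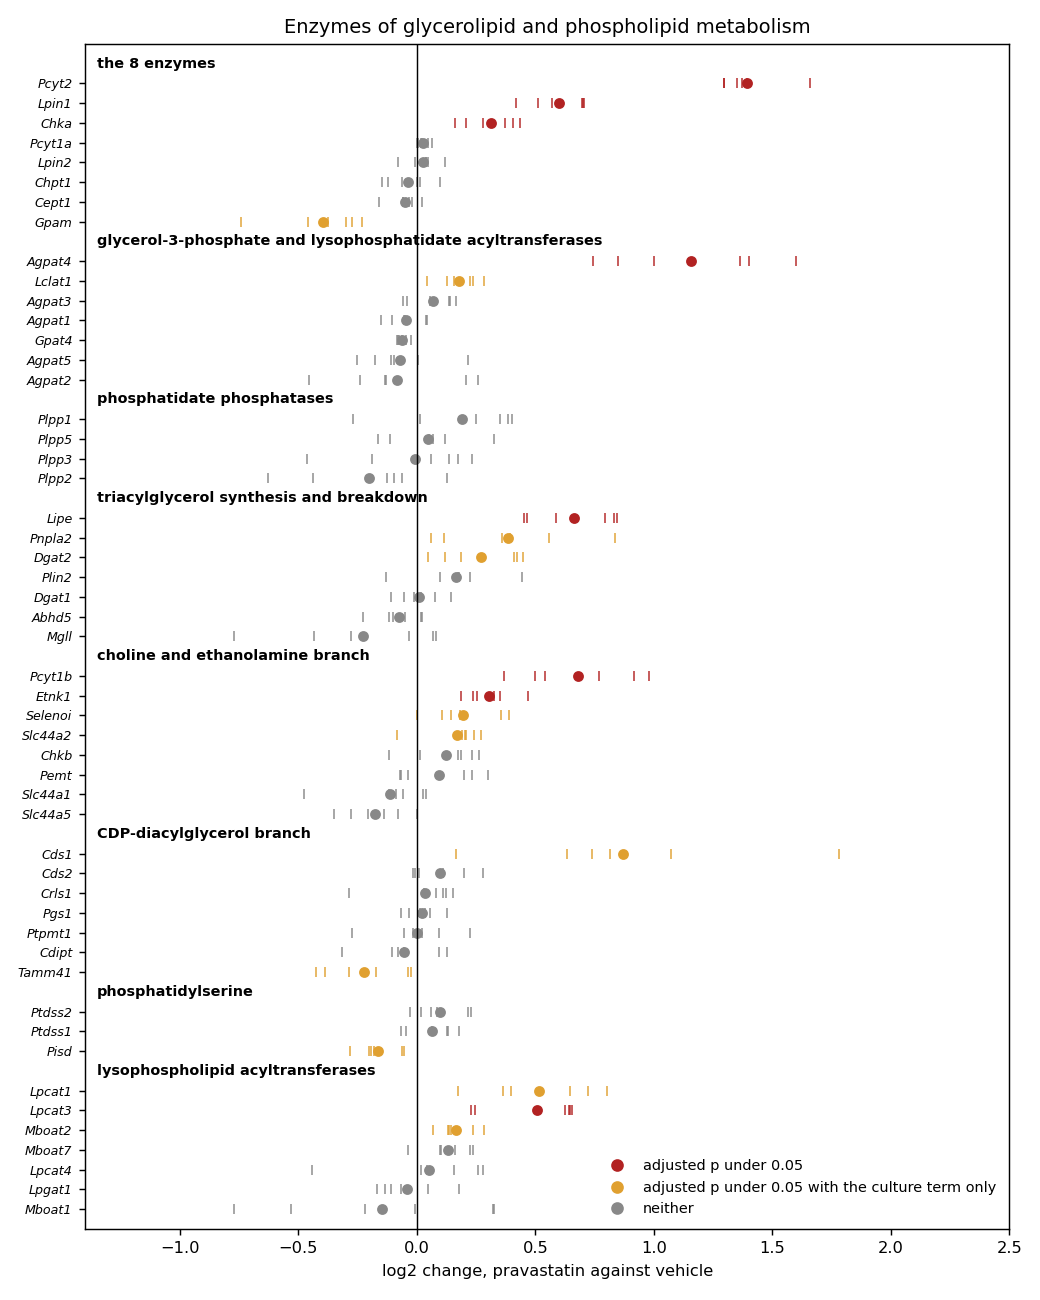
Log2 change with pravastatin (linear axis) for the 8 enzymes and 43 other tested genes, grouped by step. Dots are the fitted change over 12 libraries, short strokes the 6 cultures, red a call, yellow a call with the culture term only. The dots of Agpat4 at 1.16 and Pcyt2 at 1.39 lie farthest to the right.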

How the data were processed

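RNA was sequenced in 12 libraries. TopHat2 2.1.1 was the authors' aligner (GRCm38), followed by Cufflinks assembly and HTSeq counting. The deposited signal values are read counts that the authors divided by an effective library size. All values (100%) were whole reads within 0.001 read, which gave 13353619 to 18422845 reads per library. A count of 0 allows up to 3 reads, a value of 0.157 to 0.228, for counting error only. Columns of the authors' own fold changes and p-values were not used.

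The design named edgeR for counts, and because the files hold normalized values, limma 3.58.1 (R 4.3.3, lmFit and eBayes with trend) was used on log2(value + 0.5), so folds of low genes are understated. Sex was a covariate where both sexes were fitted. The filter kept genes with more than 1 in 6 or more libraries (3 in one sex, in the interaction and with vehicle), and p was adjusted by Benjamini-Hochberg over all genes tested. Calls needed an adjusted p under 0.05, and genes above 1.5-fold were counted separately. The fits were also run on simulated data with small random culture effects. Differences as large as those of female cultures 2 and 3 were not simulated, so the fits were not tested for them. The enzymes and gene lists were chosen with earlier results of these data known. All 8 enzymes passed the filter. Named are the 8 enzymes, listed pathway genes called with or without the culture term, and the 3 genes closest to each called enzyme.

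Vehicle and pravastatin libraries of a sex share replicate numbers. After removal of group means, same-numbered pairs correlated at 0.179 to 0.871 and differently numbered pairs at -0.84 to 0.43, so the numbers were taken to pair libraries of a culture, and a term per culture was the blocked alternative. The labels call the libraries biological replicates. Other alternatives were pseudocounts of 1 and 0.1, no filter or a minimum of 5, rescaling to one total, edgeR 4.0.16 and DESeq2 1.42.0 on whole reads, no sex term, and leaving out each library or female cultures 2 and 3. The blocked fit without those cultures was added after seeing the data.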

Additional observations from a re-analysis of the deposited data

Results flagged for a closer look

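Of 24 groups of 6 values, 2 held a value farther from its neighbour than Dixon's 95% limit of 0.625 of the range, and chance flags about 1 in 20 groups. Lpin2 with pravastatin in female culture 1 was 64.6, below the next value of 67.7, a gap of 0.668 of the range. The log2 change of Pcyt2 in female culture 3 was 1.66, above the next value of 1.39, a gap of 0.728 of the range, and the other 5 cultures lay between 1.29 and 1.39. Female cultures 2 and 3 both stood apart in marker levels but were not alike, and in female culture 2 the change was 1.37. With pravastatin the astrocyte marker Gfap went from 179 to 69.3 in female culture 3 and from 408 to 507 in female culture 2. Another, Slc1a3, went from 1218 to 1239 and from 1271 to 1252. The part of marker levels in the change of Pcyt2 was not tested.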

How the results depend on the processing

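Pcyt2 and Lpin1 kept their direction and call over both sexes in all 24 alternatives (adjusted p up to 0.000873 and 0.0123), and Chka lost its call in 10. Lpin2, Pcyt1a, Chpt1 and Cept1 were called in none of them, and the cause of each move was not tested unless stated. Over both sexes 406 genes were higher and 47 lower. Rescaling to one total gave 311 and 142, DESeq2 614 and 228, and no sex term 28 lower. The replicate block gave 1583 higher and 1227 lower with limma and 1523 and 1333 with edgeR. Without female cultures 2 and 3 there were 1313 and 1209, and 1939 and 1886 with the block as well. Enzymes called lower went from 0 to 1, Gpam, in each of these last 4 fits.

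Other pathway genes called higher numbered 5, and 9 by DESeq2, 13 and 12 with the block in limma and edgeR, 11 without female cultures 2 and 3 and 16 with both changes. Those called lower were 0, and 2, 2 and 3 in the blocked fits. In females 11 genes were higher and 0 lower, against 1 higher after rescaling, 130 higher and 2 lower by DESeq2, 296 and 28 with the block and 298 and 34 with the edgeR block. Enzymes called higher in females were then 1 by DESeq2, Pcyt2, and 2 with either block, Pcyt2 and Lpin1. In males 925 genes were higher and 664 lower, against 686 and 1410 after rescaling, 1537 and 1336 with the block and 1688 and 1149 with the edgeR block. The pairing changed no other call of an enzyme.

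Leaving out 1 library gave, over both sexes, 304 to 521 genes higher and 11 to 112 lower, 2 to 3 enzymes higher and 4 to 7 other pathway genes higher. It gave 0 to 19 genes higher in females, and in males 483 to 1066 higher, 123 to 869 lower and 0 to 1 enzymes lower. Between sexes with vehicle it gave 0 to 1 enzymes higher and 0 to 2 lower in males. With 3 cultures a sex, an adjusted p above the threshold does not show that a change was absent.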
